A study of Mus musculus with 8 samples.

Results

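The genes described here are 7 that encode the neuregulin receptors Erbb2, Erbb3 and Erbb4, the neuregulin ligands Nrg1 and Nrg3, the secreted glial protein Lgi4 and its receptor Adam22. They were taken by gene symbol, from a list made with earlier results of these data known. All 7 were present among the 18561 genes of the expression table. Neuregulins are growth factors that bind ErbB3 or ErbB4 at the cell surface. ErbB3 has little kinase activity of its own and signals by pairing with ErbB2, which has a strong kinase and no known ligand, so that the pair works as a unit that activates the PI3 kinase and MAP kinase pathways. In mouse, neural crest cells and the Schwann cell lineage need ErbB3 to survive and spread along nerves, the crest transcription factor Sox10 maintains Erbb3 expression, and variants near NRG1 and NRG3 have been linked to Hirschsprung disease in human genetic studies. Lgi4 is secreted by glial cells of peripheral nerves and binds Adam22, a protein of the ADAM family without protease activity, and mice without functional Lgi4 (the claw paw mutant) form myelin late.

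The study compared enteric neural crest cells, the migratory cells that form the nerves and glia of the gut, from mouse embryos with a knockdown of Emb and from wild-type (WT) embryos. Emb encodes embigin, a membrane glycoprotein that accompanies lactate transporters. There were 5 libraries labelled Emb knockdown and 3 libraries labelled WT, all at embryonic day 14.5, each made by Smart-seq2 amplification from a tube of about 200 cells sorted with antibodies to CD271 (the product of Ngfr) and CD57. The labels name neither the vector, promoter or line that carried the knockdown nor any agent given to the WT embryos, and they do not say whether libraries came from separate embryos, so p-values measure only the spread between these libraries.

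The libraries held 20116607 to 26959265 counts over genes, and 15082 to 17051 genes had at least 1 count. The targeted gene did not mark the labels: Emb was at 353, 349, 37.2, 21.4 and 21.7 counts scaled to library size (CPM, counts per 1e6) in libraries labelled knockdown 1 to 5, against 16.9, 17.7 and 15.9 CPM in WT 1 to 3. It was lower than WT in none of the 5 libraries, so every direction below is between libraries as labelled. Knockdown-labelled libraries 1 and 2 stood apart from the other 6. The summed level of 20 leukocyte markers was 30705 to 36695 CPM in these 2 libraries and 1752 to 3078 CPM in knockdown-labelled libraries 3 to 5, against 555 to 827 CPM in WT. The summed level of 15 enteric progenitor markers was 362 to 415 CPM in libraries 1 and 2 and 1213 to 1496 CPM in libraries 3 to 5, against 3165 to 3380 CPM in WT. In libraries 1 and 2 the neuronal genes Snap25 and Chrna3 and the crest gene Tfap2b were at 0, which goes against the labelled cell type there. Fold changes of the 7 genes are therefore given over all 8 libraries and again over 6, with knockdown-labelled libraries 3 to 5 set against the 3 WT libraries, and ratios within a library and transcript lengths over the 6 alone. In such bulk samples, fewer cells of a type and less RNA per cell cannot be told apart.

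In the WT libraries the receptor Erbb3 and the ligand Lgi4 were the most abundant of the 7 genes, and Erbb4 was near the detection limit. Levels between genes are compared in FPKM, which divides counts by transcript length. Erbb3 averaged 16.8 ± 0.537 FPKM (SD, n = 3), Lgi4 14.3 ± 1.02, Erbb2 9.46 ± 1.89, Nrg1 4.22 ± 1.08, Adam22 2.82 ± 0.393, Nrg3 0.737 ± 0.230 and Erbb4 0.0467 ± 0.0058 FPKM in WT. No 2 neighbours in this order overlapped among the 3 WT libraries, with 0.5 to 0.96 FPKM for Nrg3 and 2.51 to 3.26 FPKM for Adam22, for example. In knockdown-labelled libraries 3 to 5 the order of the means began differently. Erbb3 averaged 7.82 ± 0.601 FPKM and Erbb2 6.79 ± 1.19 FPKM there (SD, n = 3), with overlapping libraries, and Nrg1, at 5.96 ± 1.91 FPKM, stood above Lgi4, at 4.63 ± 0.880 FPKM. Nrg1 and Lgi4 overlapped, with 3.77 to 7.29 FPKM for Nrg1 and 3.74 to 5.50 FPKM for Lgi4.

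**Figure D1:**
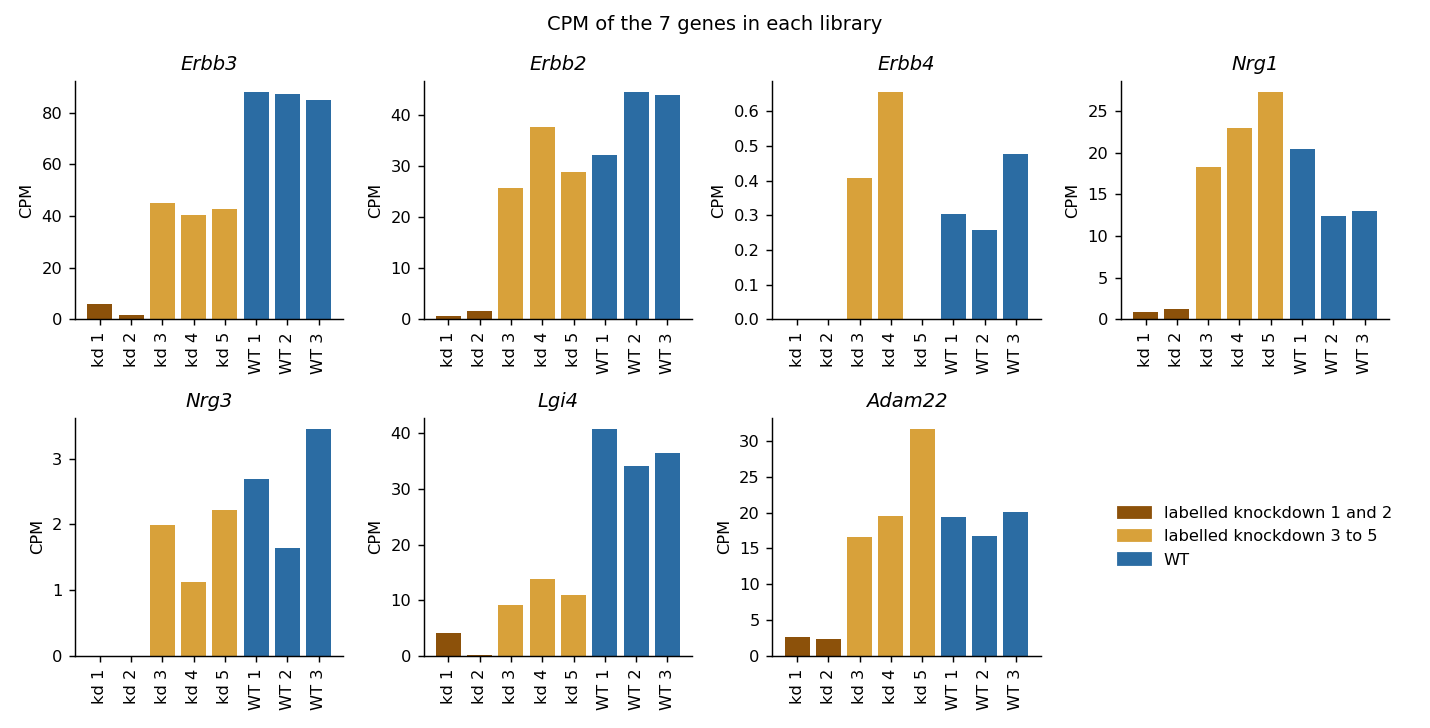
CPM of the 7 genes, 1 panel each and 1 bar per library, with the 5 libraries labelled knockdown (kd, dark brown for libraries 1 and 2 and ochre for 3 to 5) left of the 3 WT libraries (blue), and no error bars since each bar is 1 library. Erbb3 and Lgi4 are below every WT library in all 5 libraries labelled knockdown, with 45.0 CPM as the highest for Erbb3 against a lowest WT value of 84.8 CPM, whereas Nrg1 and Adam22 overlap with WT.

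Erbb3 (gene ID 13867, on chromosome 10 from 128567523 to 128589652, minus strand, GRCm38.p6) was at 6.03, 1.84, 45.0, 40.3 and 42.8 CPM in libraries labelled knockdown 1 to 5, against 87.8, 87.0 and 84.8 CPM in WT 1 to 3. These values are scaled over all 8 libraries. Every library labelled knockdown was below every WT library, and libraries 1 and 2 were far below libraries 3 to 5. Over 8 libraries the log2 fold change was -1.67 ± 0.88 (SE), with a Benjamini-Hochberg adjusted p = 0.360 in edgeR's quasi-likelihood test and p = 0.125 in a two-sided exact permutation test over samples. Over 6 libraries, scaled among themselves, Erbb3 fell to 46.5 ± 2.56 CPM in knockdown-labelled libraries 3 to 5, against 94.1 ± 1.72 CPM in WT (SD, n = 3 each), a log2 fold change of -1.02 ± 0.15 with adjusted p = 0.00883 in edgeR. The exact permutation test gave p = 0.1 there, the smallest that 3 against 3 allows. The edgeR call was lost without knockdown-labelled library 4 (adjusted p = 0.0564) and without WT 3 (adjusted p = 0.0509), while the log2 fold change stayed between -1.07 and -0.98 with any 1 of the 6 libraries left out.

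Erbb2 (gene ID 13866, on chromosome 11 from 98412470 to 98437716, plus strand), the kinase partner of ErbB3, was at 0.721, 1.55, 25.7, 37.7 and 28.9 CPM in libraries labelled knockdown 1 to 5, against 32.2, 44.4 and 44.0 CPM in WT 1 to 3. Knockdown-labelled library 4 lay above WT 1, so the groups overlapped. Over 6 libraries Erbb2 averaged 33.5 ± 6.75 CPM in knockdown-labelled libraries and 43.7 ± 7.53 CPM in WT (SD, n = 3 each), and the log2 fold change of -0.38 ± 0.22 did not pass edgeR's test (adjusted p = 0.237). Over 8 libraries it was -1.09 ± 1.08 (edgeR adjusted p = 0.647). Erbb4 (gene ID 13869, on chromosome 1 from 68032186 to 69108059, minus strand), a receptor that has both a kinase and ligand binding, had 0, 0, 11, 14 and 0 counts in libraries labelled knockdown 1 to 5, against 7, 8 and 13 counts in WT 1 to 3. A count of 0 allowed a level of up to 0.155, 0.141 and 0.138 CPM in libraries 1, 2 and 5 (3 counts, counting error only), below the lowest WT value of 0.258 CPM, while libraries 3 and 4 were at 0.407 and 0.655 CPM, so the groups overlapped. Erbb4 passed the filter on low counts over 8 libraries, with a log2 fold change of -0.68 ± 1.51 (edgeR adjusted p = 0.855), and did not pass it over 6.

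Nrg1 (gene ID 211323, on chromosome 8 from 31814551 to 32884029, minus strand), the main ligand of ErbB3 in the Schwann cell lineage, was at 0.824, 1.27, 18.3, 23.0 and 27.3 CPM in libraries labelled knockdown 1 to 5, against 20.5, 12.4 and 12.99 CPM in WT 1 to 3. Libraries 4 and 5 were above every WT library and library 3 lay below WT 1. Over 6 libraries Nrg1 averaged 24.9 ± 4.86 CPM in knockdown-labelled libraries and 16.6 ± 4.89 CPM in WT (SD, n = 3 each), a log2 fold change of 0.58 ± 0.27 that did not pass edgeR's test (adjusted p = 0.152). limma's voom with quality weights called it higher, with adjusted p = 0.0209, where that tool called 23.3% of all genes higher. The log2 fold change over 8 libraries was -0.11 ± 1.06 (edgeR adjusted p = 0.969), and its sign changed without libraries 1 and 2. Nrg3 (gene ID 18183, on chromosome 14 from 38368952 to 39473088, minus strand), a ligand of ErbB4, was at 0, 0, 2.00, 1.12 and 2.21 CPM in libraries labelled knockdown 1 to 5, against 2.69, 1.64 and 3.45 CPM in WT 1 to 3. The groups overlapped in the 6 libraries, and the log2 fold change was -0.54 ± 0.56 (edgeR adjusted p = 0.510). Over 8 libraries it was -1.27 ± 1.45 (edgeR adjusted p = 0.698).

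Lgi4 (gene ID 243914, on chromosome 7 from 31059342 to 31070935, plus strand) was at 4.17, 0.235, 9.18, 13.8 and 11.02 CPM in libraries labelled knockdown 1 to 5, against 40.8, 34.05 and 36.5 CPM in WT 1 to 3. No library labelled knockdown came near the WT range. Over 6 libraries Lgi4 fell to 12.3 ± 2.50 CPM in knockdown-labelled libraries, against 40.3 ± 3.71 CPM in WT (SD, n = 3 each), a log2 fold change of -1.71 ± 0.22 with adjusted p = 0.00506 in edgeR and p = 0.1 in the exact permutation test. It was called with any 1 of the 6 libraries left out, at edgeR adjusted p from 0.00137 to 0.0315. The call was lost when the counts of Fxyd3, an overlapping gene described further on, were added to those of Lgi4 (log2 fold change -0.72 ± 0.30, edgeR adjusted p = 0.120). Over 8 libraries the log2 fold change was -2.27 ± 0.89, with an unadjusted p = 0.0340 and adjusted p = 0.232 in edgeR. Adam22 (gene ID 11496, on chromosome 5 from 8072352 to 8368160, minus strand), the receptor of Lgi4, was at 2.68, 2.40, 16.5, 19.6 and 31.6 CPM in libraries labelled knockdown 1 to 5, against 19.3, 16.8 and 20.1 CPM in WT 1 to 3. Libraries 1 and 2 were low and library 5 was the highest of all 8. Over 6 libraries Adam22 averaged 24.6 ± 8.70 CPM in knockdown-labelled libraries and 20.4 ± 1.92 CPM in WT (SD, n = 3 each), with a log2 fold change of 0.27 ± 0.27 (edgeR adjusted p = 0.496). Over 8 libraries the sign was the opposite, at -0.36 ± 0.82 (edgeR adjusted p = 0.857). On the log2(FPKM + 1) scale its difference was -0.054, and without knockdown-labelled library 5 its log2 fold change was -0.049.

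**Figure D2:**
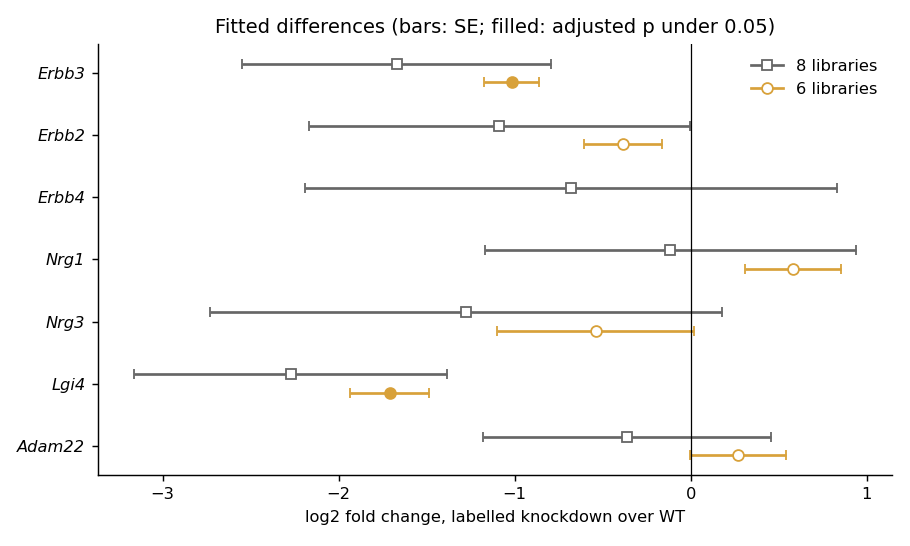
log2 fold change of each gene, libraries labelled knockdown over WT, over 8 libraries (squares) and over 6 (circles), with bars of 1 SE and filled symbols for an edgeR adjusted p under 0.05. The filled symbols are Erbb3 and Lgi4 over 6 libraries, at -1.02 and -1.71, and Erbb4 has no value there because it did not pass the filter.

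Over 8 libraries edgeR called 0 of the 7 genes, as it called 0% of the 15411 genes tested. At an unadjusted p under 0.05 it had 1 of the 7, Lgi4, and 18.6% of all genes. DESeq2 called 14.5% of all genes (3.93% lower) and 0 of the 7, and limma's voom with quality weights called 24.1% of all genes and 2 of the 7, Erbb3 (adjusted p = 0.0349) and Lgi4 (adjusted p = 0.0164), both lower, as were 11.6% of all genes. Both groups stood apart without overlap, libraries labelled knockdown below, for Erbb3 and Lgi4, 2 of the 7 genes, against 11.9% of all genes (22.7% in either direction). Over 6 libraries edgeR called 2 of the 6 genes that passed the filter, both lower, where it called 20.4% of the 15115 genes tested, 9.37% lower and 11.1% higher. Groups of 3 stood apart without overlap for the same 2 genes, again below WT, and for 43.4% of all genes, 22.8% with the knockdown-labelled libraries below. limma's voom called 3 of the 6, Erbb3 and Lgi4 lower and Nrg1 higher, where it called 45.5% of all genes, 22.2% lower. Of edgeR's calls over 6 libraries 54.1% were higher, against 45.4% when libraries were scaled by their size alone. Of limma's calls on the log2(FPKM + 1) scale, where both test and scale differ, 38.4% were higher. The median log2 fold change of the 6 genes was -0.46, against 0.02 over all genes tested.

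Beside these 2 genes, many crest and glial transcripts were lower as well. Sox10 was at 5.51, 0, 68.0, 77.6 and 68.6 CPM in libraries labelled knockdown 1 to 5, against 281, 274 and 244 CPM in WT 1 to 3. Over 6 libraries it fell by 1.90 on the log2 scale (SE 0.16, edgeR adjusted p = 0.00343), and over 8 libraries the log2 fold change was -2.60 ± 1.40 (edgeR adjusted p = 0.371). Of the 13 glial and Schwann precursor markers tested, 0 rose and 7 fell over 6 libraries, and the summed level of that list was 226 to 279 CPM in knockdown-labelled libraries 3 to 5, against 731 to 802 CPM in WT. Among other cell types, 15 of 20 leukocyte markers and 10 of 15 mesenchyme markers rose and 13 of 15 endothelium markers fell in the same comparison. These counts moved with single libraries: without knockdown-labelled library 4 they were 4 glial, 10 leukocyte, 2 mesenchyme and 5 endothelium markers, without WT 2 they were 5, 14, 2 and 8, and without WT 3 they were 4, 12, 6 and 5. Without WT 1 the mesenchyme count was 6, and over 8 libraries edgeR called 0 markers. The summed mesenchyme level was 5668 to 6264 CPM in knockdown-labelled libraries 3 to 5, against 2782 to 4077 CPM in WT, and the summed endothelium level was 147 to 301 CPM, against 776 to 965 CPM in WT. No leukocyte, mesenchyme or endothelium marker was at 0 throughout either group of 3. The part of these other cell types in the values of the 7 genes was not tested.

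Each gene but Erbb4, whose counts were too low, was also set against Sox10 inside the same library. Lgi4 had 13.5, 17.7 and 16.1 counts per 100 Sox10 counts in knockdown-labelled libraries 3 to 5, against 14.5, 12.4 and 14.9 in WT 1 to 3, and the groups overlapped. The log2 ratio of Lgi4 to Sox10 differed by 0.17 (exact permutation p = 0.3). The overlap rested on knockdown-labelled library 3: without it the difference was 0.28 and the groups stood apart (exact permutation p = 0.1, the smallest that 2 against 3 allows). Without library 4 or WT 2 the difference was 0.08 or 0.09. Library 3 is also where Lgi4 held its smallest share of the counts it divides with Fxyd3, and the part of that share in the ratio was not tested. Erbb3 had 66.2, 51.9 and 62.4 counts per 100 Sox10 counts in knockdown-labelled libraries 3 to 5, against 31.3, 31.8 and 34.8 in WT 1 to 3. Its log2 ratio to Sox10 was -0.74 ± 0.18 in knockdown-labelled libraries and -1.62 ± 0.08 in WT (SD, n = 3 each), a difference of 0.88 without overlap (exact permutation p = 0.1). So per Sox10 count Erbb3 was higher in the knockdown-labelled libraries, although Erbb3 itself was lower. Erbb2, Nrg1, Nrg3 and Adam22 were also higher per Sox10 count without overlap, with log2 differences of 1.51, 2.50, 1.37 and 2.12 (exact permutation p = 0.1 each). For Nrg3 the gap was narrow, at 1.45 counts per 100 Sox10 counts in knockdown-labelled library 4 against 1.41 in WT 3. Sox10 itself fell by 1.90 on the log2 scale, against a median of 0.02 over all genes. A gene that fell less than Sox10 is therefore higher per Sox10 count. The share of all genes that stood apart in this way was not computed. In a further comparison the mean log2 CPM of the 15 progenitor markers, which include Sox10, took the place of Sox10. The Erbb3 difference was then 0.09, with overlapping groups (exact permutation p = 0.8), and the Lgi4 difference was -0.62 (exact permutation p = 0.1). Nrg3 differed by 0.59 (exact permutation p = 0.3), and Erbb2, Nrg1 and Adam22 by 0.72, 1.70 and 1.32 (exact permutation p = 0.1 each).

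Set against Erbb2, both Erbb3 and Lgi4 were lower in the knockdown-labelled libraries. Erbb3 differed by -0.63 and Lgi4 by -1.34 in their log2 ratio to Erbb2, both without overlap (exact permutation p = 0.1 each). Lgi4 had 35.7, 36.5 and 38.1 counts per 100 Erbb2 counts in knockdown-labelled libraries 3 to 5, against 126.6, 76.6 and 82.9 in WT 1 to 3. In FPKM the ratio of Erbb3 to Erbb2 was 1.45, 0.884 and 1.22 in knockdown-labelled libraries 3 to 5, against 2.26, 1.62 and 1.59 in WT 1 to 3, so the WT libraries held more Erbb3 than Erbb2 in each case and knockdown-labelled library 4 did not. The log2 ratios of Nrg1, Adam22 and Nrg3 to Erbb2 overlapped between groups, with differences of 0.99, 0.61 and -0.14 (exact permutation p = 0.2, 0.2 and 0.5). Over the 11 ratios compared, the lowest adjusted permutation p was 0.157, since 3 against 3 libraries cannot go below 0.1 before adjustment. How many of all genes stood apart in their ratio to Erbb2 was not computed either.

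**Figure D3:**
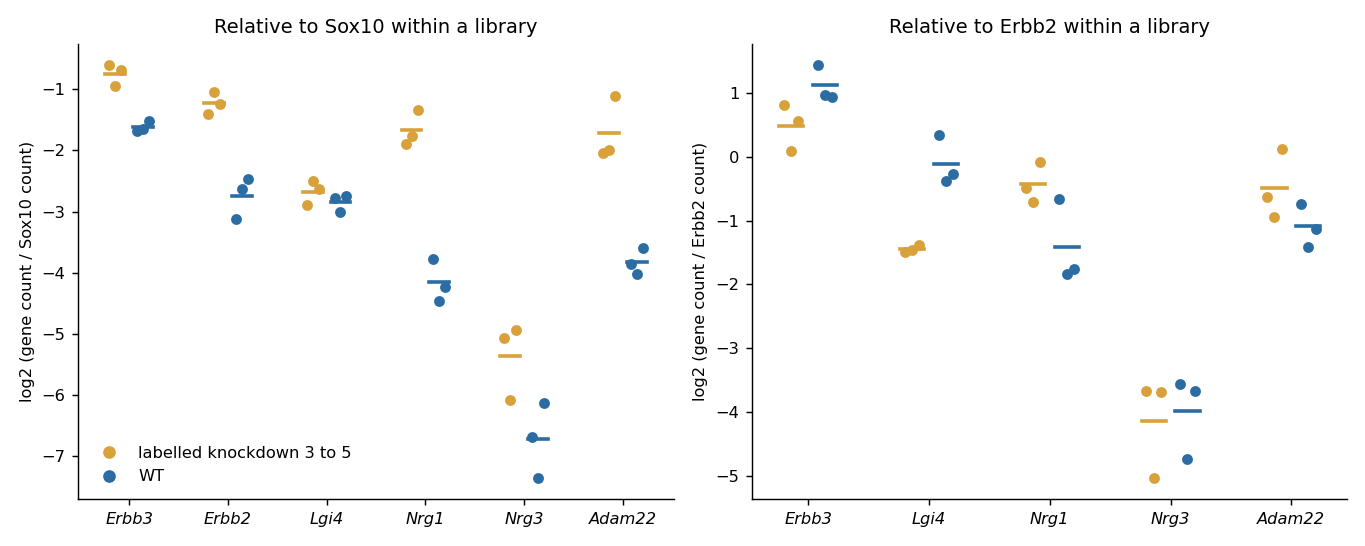
log2 ratio of each gene's count to that of Sox10 (left) and of Erbb2 (right) in the same library, for knockdown-labelled libraries 3 to 5 beside WT 1 to 3, with each point a library and bars at the means. Lgi4 overlaps between groups against Sox10 (a difference of 0.17, or 0.28 without overlap once knockdown-labelled library 3 is left out) and stands apart against Erbb2 (a difference of -1.34).

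The Lgi4 value carries a limit that none of the other 6 genes shares to that extent. Lgi4 overlaps Fxyd3, an epithelial regulator of the sodium pump that lies on the opposite strand, over 2059 of its 4584 exonic bases (44.9%), and the libraries do not mark strand. The deposited counts of both genes held fractions in 8 of 8 libraries while their sum was whole in 8 of 8 (within 0.01), so reads were shared out between them. Lgi4 held 91.6, 83.0, 23.4, 50.5 and 70.3% of the summed count in libraries labelled knockdown 1 to 5, against 84.5, 77.3 and 84.5% in WT 1 to 3. The share was lowest in knockdown-labelled library 3, where Fxyd3 was at 30.1 CPM and the summed gut epithelium markers were highest, at 1413 CPM, against 393 to 1065 CPM in WT. In libraries 4 and 5 the share was also below every WT library, while these markers were at 385 and 342 CPM, below WT. WT 2, at 1065 CPM, had a share of 77.3%. The part of epithelial cells in this share was not tested. With the Fxyd3 counts added to Lgi4, a comparison chosen after seeing the data, the sum averaged 29.8 ± 12.9 CPM in knockdown-labelled libraries 3 to 5 and 49.1 ± 3.00 CPM in WT (SD, n = 3 each). As given with Lgi4 itself, this sum was not called by edgeR. Nrg1 shares 482 exonic bases (4.66%) with the noncoding gene Gm26578 and Erbb2 shares 9 with Mien1.

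**Figure D4:**
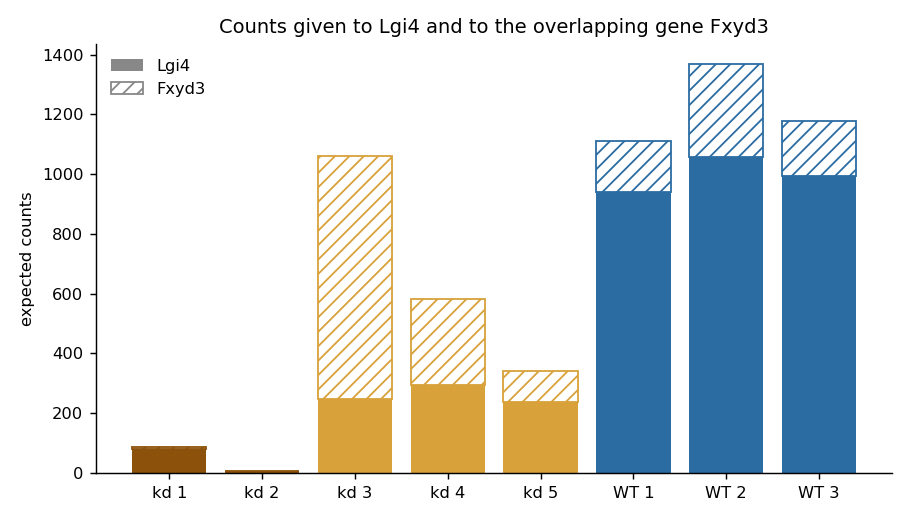
Expected counts given to Lgi4 (filled) and Fxyd3 (hatched), stacked, in each library, not scaled for depth, with the 5 libraries labelled knockdown (kd) left of the 3 WT libraries. Lgi4 is the smaller portion in knockdown-labelled library 3, at 23.4% of the summed count, and 77.3 to 84.5% in the WT libraries.

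The deposited counts and FPKM also gave the transcript length that the authors' FPKM divides by, which can move where a gene's isoforms are used in other proportions. This was computed after seeing the data, for genes with at least 100 counts and 1 FPKM in each of the 6 libraries. It was nearly constant for Erbb3, at 5788 ± 14.6 bases in knockdown-labelled libraries 3 to 5 and 5770 ± 10.1 bases in WT (SD, n = 3 each), and for Erbb2, at 4783 ± 12.9 bases and 4771 ± 11.5 bases in WT. Each of these receptors has 1 annotated coding transcript. Adam22, with 20 annotated coding transcripts, had a length of 8389, 8815 and 8927 bases in knockdown-labelled libraries 3 to 5, against 7815, 7685 and 6908 bases in WT 1 to 3. These groups did not overlap (exact permutation p = 0.1), and 11% of the 10650 genes compared were longer in this way. FPKM divides by that length, and the Adam22 difference was lower in FPKM than in CPM. The median of all genes also shifted by -0.091 on the log2(FPKM + 1) scale over 6 libraries. The part of the length in the Adam22 difference was not tested. Lgi4 was shorter, at 2582 ± 37.5 bases in knockdown-labelled libraries and 2906 ± 30.9 bases in WT (SD, n = 3 each), without overlap, as were 14.1% of genes. Nrg1, with 12 annotated coding transcripts, was at 5199, 3457 and 4030 bases in knockdown-labelled libraries 3 to 5, against 4097, 4339 and 3692 bases in WT 1 to 3, and the groups overlapped.

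**Figure D5:**
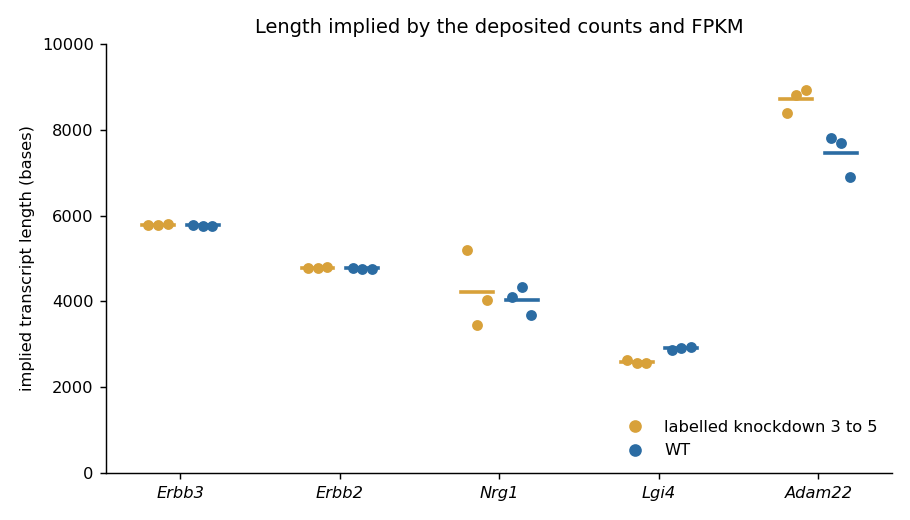
Transcript length in bases implied by the deposited counts and FPKM for 5 of the 7 genes in knockdown-labelled libraries 3 to 5 (ochre, left) and in WT (blue, right), with each point a library and bars at the means. Erbb3 and Erbb2 are flat, Adam22 is longer in the knockdown-labelled libraries (8389 to 8927 bases) than in WT (6908 to 7815 bases), and Lgi4 is shorter.

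Around these genes, 87 other genes of the pathway were grouped into 6 lists, of which 83 genes were tested over 6 libraries, with 11 called higher and 14 lower by edgeR. These 25 calls are 30.1% of the 83, where edgeR called 20.4% of all genes, 11.1% higher and 9.37% lower, and the counts in each list below stand against those shares. Among the other ErbB ligands and Egfr, 2 of 8 tested rose, 0 fell and 6 did not pass. Hbegf, a ligand of Egfr and ErbB4, rose to 48.5 ± 8.23 CPM in knockdown-labelled libraries, against 23.4 ± 8.33 CPM in WT (SD, n = 3 each, log2 fold change 1.05 ± 0.27, edgeR adjusted p = 0.0319). Egfr rose by 0.89 ± 0.27 on the log2 scale (edgeR adjusted p = 0.0468). Areg, another Egfr ligand, was at 1.74 ± 0.83 and did not pass (edgeR adjusted p = 0.160). Of the 9 proteases and secretase subunits that shed or process neuregulins, 1 rose and 1 fell: the metalloprotease Adam19 at 0.82 ± 0.24 (edgeR adjusted p = 0.0437) and the gamma-secretase subunit Ncstn at -0.96 ± 0.28 (adjusted p = 0.0441). Aph1a, another subunit of gamma-secretase, was at -0.54 ± 0.19 and did not pass (edgeR adjusted p = 0.0706). Of the 7 tested relatives and partners of Lgi4 and Adam22, 2 rose and 2 fell. Adam23 and Adam11, both close relatives of Adam22, had log2 fold changes of -1.13 ± 0.25 and -0.97 ± 0.25 (edgeR adjusted p = 0.0211 and 0.0297), and Lgi2, a secreted relative of Lgi4, and the scaffold gene Dlg1 had 0.82 ± 0.21 and 1.10 ± 0.33 (adjusted p = 0.0286 and 0.0474).

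Downstream of the receptors, 2 of 34 adaptors and kinases rose, 7 fell and 25 did not pass over the 6 libraries, with a list median log2 fold change of -0.05. Plcg1, a phospholipase that binds activated receptors, was at 7.50 ± 6.72 CPM in knockdown-labelled libraries and 68.5 ± 12.05 CPM in WT (SD, n = 3 each, log2 fold change -3.18 ± 0.59, edgeR adjusted p = 0.0136). The PI3 kinase subunit Pik3r2 and the kinase Akt1 fell by 1.24 (SE 0.22) and 0.95 (SE 0.18) on the log2 scale (edgeR adjusted p = 0.0130 and 0.0143). Of the 16 inhibitors and regulators of receptor turnover, 3 rose, 1 fell and 12 did not pass, with a list median of 0.39. Erbin, which binds ErbB2, rose by 1.43 ± 0.26, the ubiquitin ligase Wwp1 by 0.94 ± 0.21 and Lrig1, which lowers ErbB receptor levels, by 0.89 ± 0.25 (edgeR adjusted p = 0.0129, 0.0211 and 0.0382). Rnf41, a ubiquitin ligase that targets ErbB3, fell by 0.79 (SE 0.20, edgeR adjusted p = 0.0279). Of the 10 tested Schwann and glial genes linked to ErbB3 signalling, 1 rose, 3 fell and 6 did not pass. Besides Sox10, the glial gene Fabp7 fell by 0.93 (SE 0.21, edgeR adjusted p = 0.0225). Egr2, a transcription factor of myelination that macrophages also express, rose by 1.01 ± 0.29 (edgeR adjusted p = 0.0435). It was at 324 and 322 CPM in knockdown-labelled libraries 1 and 2, the 2 with the highest leukocyte markers, which that fit leaves out. The cell type behind the Egr2 counts was not tested. Most of these 25 calls depended on single libraries. Without knockdown-labelled library 4 and without WT 3, 2 of the 25 were still called, Sox10 among them, and without WT 2 there were 4, with Sox10, Hbegf and Plcg1 among them. Of the 25 calls, 8 were kept without WT 1, 11 without knockdown-labelled library 5 and 24 without library 3. Over all 8 libraries edgeR called 0 of the 83 genes, with 13 at an unadjusted p under 0.05.

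Likeness of profile was measured as the root mean square difference of centred log2 CPM over the 8 libraries, against 12737 genes of sufficient level. It is a description over libraries that share the stand-apart values of knockdown-labelled libraries 1 and 2. For Erbb3 the nearest genes were Fgd5 (0.19), Spsb4 (0.21) and Rundc3b (0.24), while Lgi4 ranked 210 at 0.63 and Erbb2 ranked 587 at 0.83. For Erbb2 they were Fbln1 (0.19), Tead2 (0.20) and Gjc1 (0.21). For Lgi4 the nearest were Fabp7 (0.41), Tmprss5 (0.45) and Ccdc13 (0.46), and Erbb3 ranked 17 at 0.63. Its likeness to Sox10 differed by the libraries used, at 1.64 over 8 libraries and 0.17 over 6. Nrg1 was nearest to Adcy6 (0.16), Faxc (0.16) and Lpar4 (0.19), and Adam22 to Heg1 (0.14), Adcy3 (0.14) and Syne2 (0.16). None of the 3 genes nearest to any of these 5 was another of the 7, and Nrg3 and Erbb4 were too low to be compared.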

How the data were processed

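Expression was measured by Smart-seq2 RNA sequencing in 8 libraries, 5 labelled Emb knockdown and 3 labelled WT. HISAT and Bowtie2 and the build GRCm38.p6 are named in the submitters' processing notes; the counting tool and annotation are not given in the sources used here. The authors deposited expected counts per gene, of which 17.6 to 19.8% of values per library were not whole, beside FPKM, TPM and a normalised count per gene, per the file headers; TPM and the normalised count signal were deposited by the authors and not used here. There are no molecular identifiers, so limits cover counting error only. Expected counts were rounded, filtered with filterByExpr, scaled by TMM and tested with robust edgeR 4.0.16 quasi-likelihood fits in R 4.3.3, with Benjamini-Hochberg adjustment over all genes and a threshold of 0.05. CPM use TMM-scaled library sizes. DESeq2 1.42.0 and limma 3.58.1 were alternatives, with other scalings, filters, FPKM with a pseudocount of 1 or 0.1 (fitted with limma) and single libraries left out. Within-library log2 ratios added 0.5 to each count. Group means in the deposited table (8 columns) were not used.

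The members, the gene lists and the choice to leave out 2 libraries were made with earlier results of these data known. The text names all 7 members, the called genes of a pathway list up to 5 and otherwise the 3 with the smallest p, and the 3 nearest profiles. One gene that this rule names is not reported here. Coordinates and overlaps come from the GENCODE annotation of GRCm38.p6.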

Additional observations from a re-analysis of the deposited data

How the results depend on the processing

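Over 8 libraries the 0 genes called by edgeR became 2222 with DESeq2, 3720 with limma's voom, 3090 without knockdown-labelled libraries 1 and 2 and 0 to 2 with any 1 library left out, and the members called became 2 with voom and 2 without libraries 1 and 2. Over 6 libraries the 3090 genes called became 6875 with voom and ranged from 180 (without knockdown-labelled library 4) to 5982 (without library 3) with 1 left out, with 1660 without library 5 and 1388, 417 and 294 without WT 1, 2 and 3. The 2 members called became 1 with Fxyd3 counts added to Lgi4, and 1 to 2 with 1 library left out. The sign of Nrg1 over 8 libraries turned, at 0.38 with voom, 0.58 without libraries 1 and 2 and -0.48 to 0.19 with 1 left out. Adam22 turned at 0.27 over 8 libraries without libraries 1 and 2, and over 6 at -0.054 and -0.081 on the log2(FPKM + 1) and log2(FPKM + 0.1) scales and from -0.049 to 0.44 with 1 left out. Lgi4 relative to Sox10 turned to -0.62 with progenitor markers in its place, and Nrg3 relative to Erbb2 ranged from -0.52 to 0.31 with 1 left out. The Fxyd3 sum and the FPKM length are noted above for Lgi4 and Adam22, and the cause of these shifts was not tested. In all, 268 alternative fold changes of members, Sox10 and Emb kept their sign and side of the threshold, 9 turned, 7 became called and 3 lost a call. The median of all genes shifted by -0.24 with library size alone, -0.28 and -0.42 on the FPKM scales and -0.12 with voom over 8 libraries, and by -0.12 with log2(FPKM + 0.1) over 6. Replicate numbers did not pair the libraries (correlations -0.03, 0.04 and -0.04, with 1 of 6 libraries closest to its own number), and a replicate block over 8 libraries also gave 0 calls, with 2447 genes at an unadjusted p under 0.05 against 2865 without it. No paired analysis was possible because the groups of the 6-library comparison share only 1 replicate number. Counts of Erbb4 and Nrg3 were low, and both genes were at 0 in knockdown-labelled libraries 1 and 2, which held 25603325 and 26739154 counts in total.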
